A study of Mus musculus with 4 samples.

Results

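The subject is a group of 9 genes of the Eph receptor and ephrin ligand family, read in single nuclei of the mouse testis: the receptors Epha4, Epha5, Epha7, Ephb1, Ephb2 and Ephb3 and the ligands Efna5, Efnb1 and Efnb2. They were selected by gene symbol, 9 of 55357 genes in the count matrices, because Epha7, Ephb1 and Ephb3 had stood out in different nucleus classes of these same libraries. Levels between classes are therefore given as a description with no test, and only the comparison between genotypes was tested. The question that comparison addresses is how loss of Dhx37 in Sertoli cells bears on the other cells of the testis.

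Eph receptors form a large family of receptor tyrosine kinases. Their ligands, the ephrins, are held at the surface of neighbouring cells, the A class by a lipid anchor and the B class by a membrane-spanning segment, so that binding needs cell contact and can signal into both cells. EphA receptors bind mainly ephrin-A ligands and EphB receptors mainly ephrin-B ligands, with EphA4 accepting both, and the family is known for steering cell sorting, tissue boundaries and repulsion. In the seminiferous tubule, germ cells move from the basal spermatogonia through meiotic spermatocytes to haploid round and elongating spermatids while staying in contact with Sertoli cells.

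The study examined whole testes of male mice, 8 weeks old by the labels, with 10x Genomics 3′ single-nucleus RNA sequencing in 4 libraries, which the labels name as biological replicates. The 2 wild-type (WT) libraries came from WT mice, which the study describes as littermates, and the 2 Dhx37-/- libraries from Dhx37 flox/flox mice carrying Amh-Cre. That Cre transgene is driven by the promoter of Amh, a Sertoli cell gene, so the germ cells of Dhx37-/- testes were not themselves targeted. How many animals went into a library is not given in the sources used here, and p-values within a nucleus class measure only the spread between these 4 libraries. Those of a joint fit over classes, given below, rest on spread between class sums of the same libraries.

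Nuclei kept numbered 8294 to 10029 per library, 37065 in all, from 51797891 to 75611263 UMIs (unique molecular identifiers, each 1 captured transcript). Of these nuclei, 34547 fell into 26 classes, 16 germline and 10 somatic, clustered without any Eph or ephrin gene, of which 24 were named from marker genes and 2 germline classes stayed unnamed; 18 classes held enough nuclei in every library for a test. A named class is called "X-like" after its markers and an unnamed one by its leading genes, and pachytene and later spermatocyte-like classes are shortened to spermatocyte-like. Classes sharing a name are numbered by their elongating spermatid markers relative to their pachytene and later spermatocyte markers. Words such as later and last refer to this order, and no time course was fitted. The summed level of 12 elongating spermatid markers such as Prm1, Prm2 and Tnp1 ran from 12190 to 19840 CPM (UMIs of a gene relative to all UMIs of its class in a library, on the counts-per-million scale) in elongating spermatid-like 1 and from 36880 to 57030 in elongating spermatid-like 4. Sertoli-like nuclei numbered 65 in WT 1, 18 in WT 2, 172 in Dhx37-/- 1 and 241 in Dhx37-/- 2, and held 4, 3, 12 and 14 UMIs of Dhx37. UMIs of a 3′ assay need not cover the deleted exon, so they check nothing about the deletion. RNA free in the suspension was estimated at 6.60% to 40.7% of the UMIs of a tested class, and pairs of libraries shared at most 30 nucleus barcodes.

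Promoter sequence is shown for the 3 receptors that prompted the selection and for Efnb2, the ligand whose rise through spermatid classes ran beside those of Ephb1, Ephb2 and Ephb3. The sequences are bases upstream of the annotated gene from RefSeq on GRCm38.p6, 5′ to 3′ on the gene's strand, with capitals marking matches on either strand to the CRE half-site TGACG (bound by CREB and CREM factors, of which CREM acts in spermatids), the CCAAT box CCAAT and the GC box GGGCGG.
Epha7, chr4:28812881-28813065, plus strand: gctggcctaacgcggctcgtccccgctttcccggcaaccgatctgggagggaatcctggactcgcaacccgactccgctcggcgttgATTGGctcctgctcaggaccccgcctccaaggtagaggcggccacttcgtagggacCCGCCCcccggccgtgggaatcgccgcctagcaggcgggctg
Ephb1, chr9:102354694-102354943, minus strand: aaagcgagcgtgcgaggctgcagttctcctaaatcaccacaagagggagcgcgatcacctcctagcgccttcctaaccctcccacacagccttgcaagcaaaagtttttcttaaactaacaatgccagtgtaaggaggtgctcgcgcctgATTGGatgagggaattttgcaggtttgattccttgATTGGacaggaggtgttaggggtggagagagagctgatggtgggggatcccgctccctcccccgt
Ephb3, chr16:21204545-21204619, plus strand: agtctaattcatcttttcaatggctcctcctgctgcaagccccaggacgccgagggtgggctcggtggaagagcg
Efnb2, chr8:8661243-8661492, minus strand: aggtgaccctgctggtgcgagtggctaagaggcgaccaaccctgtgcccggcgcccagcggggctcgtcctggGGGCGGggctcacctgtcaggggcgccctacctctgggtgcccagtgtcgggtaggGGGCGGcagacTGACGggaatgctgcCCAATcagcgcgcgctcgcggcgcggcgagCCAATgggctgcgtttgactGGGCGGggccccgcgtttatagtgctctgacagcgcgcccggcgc

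All 9 members matched an entry of the promoter table by symbol. In the 250 bases before the first listed start, the CRE half-site matched in 4 of the 9 members and in 17.8% of 32851 starts. The CCAAT box matched in 6 members and in 33.8% of starts, and the GC box in 6 members and in 32.7% of starts. Ephb1 held 2 CCAAT boxes and neither of the other motifs, while Efnb2 held all 3 motifs. The matches are descriptions of letters, and whether they act in these cells was not measured. The Ephb3 window reaches into its first annotated transcript, so only the 75 bases before it are printed, and its CRE half-site and 2 GC boxes lie in the part not shown.

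The members fell into distinct class patterns. Of the UMIs of each receptor in classed nuclei, pooled over libraries, elongating spermatid-like classes held 83.9% for Ephb3, 80.8% for Ephb2 and 68.0% for Ephb1. Spermatocyte-like classes held 54.5% of the UMIs of Epha7. Among the ligands, elongating spermatid-like classes held 61.4% of Efnb2, round spermatid-like classes 53.4% of Efna5 and Leydig-like classes 65.7% of Efnb1.

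**Figure D1:**
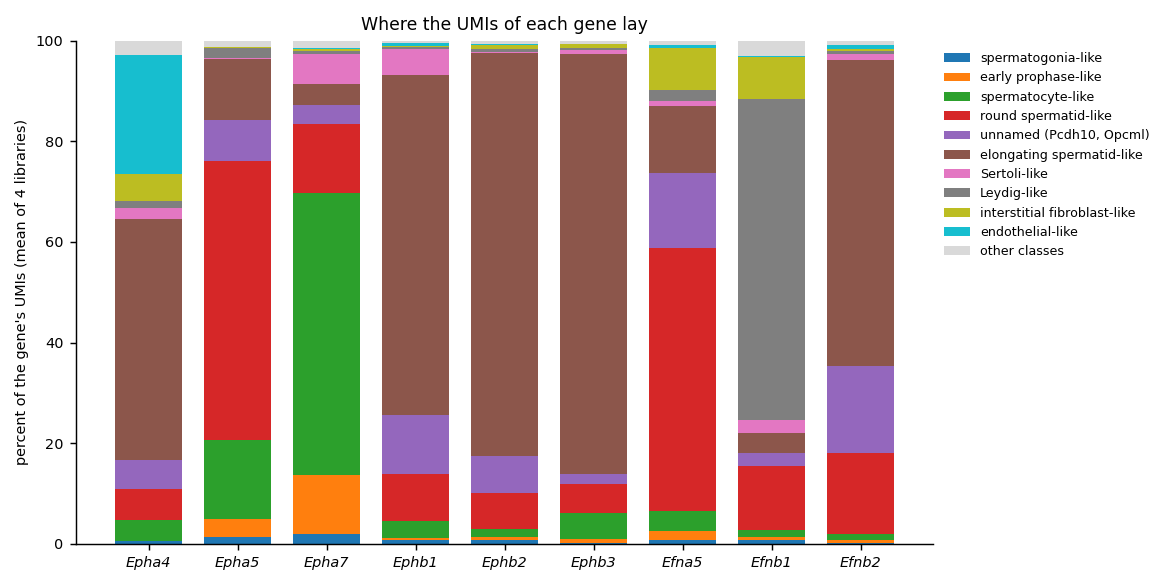
Stacked bars give, for each of the 9 genes, the percent of its UMIs that lay in each group of nucleus classes, as the mean of the 4 libraries, from 0 to 100. Ephb1, Ephb2, Ephb3 and Efnb2 lay mostly in elongating spermatid-like nuclei (brown), Epha7 mostly in spermatocyte-like nuclei (green), Efna5 mostly in round spermatid-like nuclei (red) and Efnb1 mostly in Leydig-like nuclei (dark grey).

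Among the receptors, Epha7, which prefers ephrin-A ligands such as ephrin-A5, was highest among tested classes in spermatocyte-like 1. Its level there was 105 CPM in WT 1, 61.9 in WT 2, 164 in Dhx37-/- 1 and 267 in Dhx37-/- 2, a mean of 149.6 ± 88.9 (SD, n = 4). Every library of that class lay above every library of the next class, Sertoli-like, where the values were 56.3, 8.31, 51.0 and 41.6 in the same order. In spermatocyte-like 2, the other class of that name, the mean was 7.1 ± 2.79, and in round and elongating spermatid-like classes the means lay at 2.09 to 6.07. Spermatocyte-like 2 was named on 4 raised markers of 12, against 10 in spermatocyte-like 1. Its round spermatid markers summed to 2283 to 2780 CPM. They summed to 1363 to 1591 in spermatocyte-like 1 and to 2084 to 3027 in round spermatid-like 4.

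Before the spermatocytes, Epha7 was read in spermatogonia-like nuclei at 30.5, 0, 58.4 and 52.6 CPM, the 0 being WT 2 with 31 nuclei, where a count of 0 allows up to 28.1. Levels of the 4 libraries overlapped those of the Sertoli-like class. A further class, early prophase-like 1, held 78 and 260 nuclei in the Dhx37-/- libraries against 3 and 1 in WT, and was therefore not tested. Epha7 stood at 147 and 124 CPM in its Dhx37-/- nuclei, near the level of spermatocyte-like 1, while the 3 WT 1 nuclei gave 14 UMIs (578 CPM) and the 1 WT 2 nucleus none. In early prophase-like 3, which was tested, Epha7 had a mean of 10.8 CPM, with 3 libraries at 13.5 to 15.5 and WT 2 at 0, which in so small a sum allows up to 41.6. The early prophase-like classes together held 4.19%, 0%, 17% and 25.7% of the Epha7 UMIs of WT 1, WT 2, Dhx37-/- 1 and Dhx37-/- 2.

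Ephb1, a receptor for ephrin-B ligands, appeared later. Its mean was 10.2 ± 5.55 CPM in spermatocyte-like 1 and 80.2 ± 17.5 in the unnamed germline class led by Pcdh10 and Opcml. In elongating spermatid-like 1 it was 337 in WT 1, 309 in WT 2, 217 in Dhx37-/- 1 and 209 in Dhx37-/- 2. In elongating spermatid-like 2 it was 309, 397, 231 and 257. These first classes of elongating nuclei overlapped each other and did not overlap elongating spermatid-like 3, at 149.7, 152, 135 and 150.3, and elongating spermatid-like 4 lay lower still in every library, at 71.8, 121, 64.5 and 41.5.

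Earlier in the germline, Ephb1 stood at 42.7, 28.1, 37.6 and 42.3 in spermatogonia-like nuclei. Outside the germline, it was read in Sertoli-like nuclei at 178, 0, 93.2 and 127 CPM, from 95, 0, 106 and 266 UMIs. WT 2 had no Ephb1 UMI among its 18 Sertoli-like nuclei, which allows a level of up to 24.9, below each of the other 3 libraries. Endothelial-like 1 held Ephb1 at 201, 358, 131 and 70.9, but from 37, 14, 9 and 1 UMIs, in a class too small to test. Floors and levels at such counts cover counting error only.

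Ephb2, another ephrin-B receptor, was higher from class to class through the same series and stayed high. Its mean was 35.7 ± 10.2 CPM in the unnamed Pcdh10 and Opcml class, 97.2 ± 32.5 in elongating spermatid-like 1 and 182 ± 42.9 in elongating spermatid-like 2. In elongating spermatid-like 3 the libraries stood at 291, 510, 337 and 365, and in elongating spermatid-like 4 at 284, 491, 376 and 328. The last classes overlapped each other, and every library of either lay above every library of elongating spermatid-like 2. WT 2 was the highest library in each of the 4 elongating spermatid-like classes.

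Ephb3, the third ephrin-B receptor of the group, came last. It was low in elongating spermatid-like 1, with a mean of 6.52 ± 1.23 CPM, no higher than the 7.77 ± 2.35 of spermatocyte-like 1. It then stood at 61.3, 55.1, 36.4 and 37.2 in elongating spermatid-like 2, at 273, 246, 146 and 140.3 in elongating spermatid-like 3 and at 330, 471, 221 and 207 in elongating spermatid-like 4. Elongating spermatid-like 3 and 4 overlapped, and both lay above every library of elongating spermatid-like 2, which read above every other tested class. Counts of 0 in early prophase-like 3 (WT 2) and macrophage-like 2 (Dhx37-/- 1) allow up to 41.6 and 38.2, so that last order is not settled for those classes. Ephb3 was among the 10 leading genes of both late classes, which repeats the ground on which it was selected. It was also among those of the cluster left out for its doublet calls.

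The last class carries a depth limit. Among the 18 tested classes, elongating spermatid-like 4 had the lowest median UMIs per nucleus, 1241 to 1583 by library, and the highest share of free RNA, at 40.7%, 40.1%, 29.9% and 36.0%. With the estimated free RNA subtracted, the Ephb3 mean in that class was 470.8 CPM instead of 307. In the free RNA itself, Ephb3 stood at 14.5, 31.4, 23.3 and 9.19 CPM and Ephb2 at 29.0, 58.7, 35.6 and 20.7, under their levels in elongating spermatid-like 3 and 4 in every library.

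The remaining receptors were sparse. Epha5 gave 397 UMIs in all classed nuclei and was highest in round spermatid-like 4 among classes with a UMI in every library, at 4.38, 6.02, 8.83 and 2.80 CPM, overlapping the other round classes. Epha4, a receptor that binds both ligand classes, gave 200 UMIs. It stood at 18.2, 4.37, 5.71 and 10.0 in elongating spermatid-like 3 and at 184, 154, 117 and 70.9 in endothelial-like 1, the latter from 34, 6, 8 and 1 UMIs. Endothelial-like 1 held 64, 14, 21 and 4 nuclei, so most of these Epha4 UMIs came from WT 1, while each library read higher there than in elongating spermatid-like 3.

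Among the ligands, Efnb2, a membrane-spanning ligand of EphB receptors and of EphA4, was present in the same late germ cell classes as Ephb1, Ephb2 and Ephb3. Its mean was 3.87 ± 2.39 CPM in spermatocyte-like 2, 38.6 ± 11.8 in round spermatid-like 3, 59.99 ± 11.95 in round spermatid-like 4 and 90.1 ± 19.5 in the unnamed Pcdh10 and Opcml class. It stood at 84.8, 144, 139 and 125 in elongating spermatid-like 1, at 142, 192, 206 and 206 in elongating spermatid-like 2 and at 156, 228, 266 and 259 in elongating spermatid-like 3. In the order of its levels every tested class overlapped its neighbour, and the mean in elongating spermatid-like 4 was lower again at 140.1 ± 31.7. WT 1 was the lowest library in all 4 elongating spermatid-like classes. In endothelial-like 1, a vessel class in which ephrin-B2 is a known arterial marker, Efnb2 stood at 130.1, 256, 87.6 and 142, from 24, 10, 6 and 2 UMIs.

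Efna5, the lipid-anchored ligand of EphA receptors, was highest among tested classes in interstitial fibroblast-like nuclei, at 398, 429.5, 347 and 266 CPM. No library of any other tested class reached those values. Within the germline it peaked in round spermatid-like 4, at 186, 159.9, 122 and 139.7, after means of 54.1 ± 8.61, 88.1 ± 8.53 and 131 ± 24.2 in round spermatid-like 1, 2 and 3. It was back at 53.0 ± 10.7 in elongating spermatid-like 1, and there every library lay below its own level in free RNA, which was 63.5, 122, 47.9 and 78.8.

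Efnb1, the other membrane-spanning ligand, was a somatic gene in these nuclei. It stood at 92.8, 178, 167 and 127 CPM in Leydig-like 1, the steroid-producing interstitial class, and at 42.0, 27.8, 51.6 and 38.1 in interstitial fibroblast-like nuclei. Every Leydig-like 1 library lay above every fibroblast-like library, and those read above every other tested class. Counts of 0 allow up to 28.1 in spermatogonia-like nuclei (WT 2), 39.9 in macrophage-like 2 (Dhx37-/- 2) and 41.6 in early prophase-like 3 (WT 2). For those classes that last order is not settled. Its mean in Sertoli-like nuclei was 6.54 ± 5.06.

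**Figure D2:**
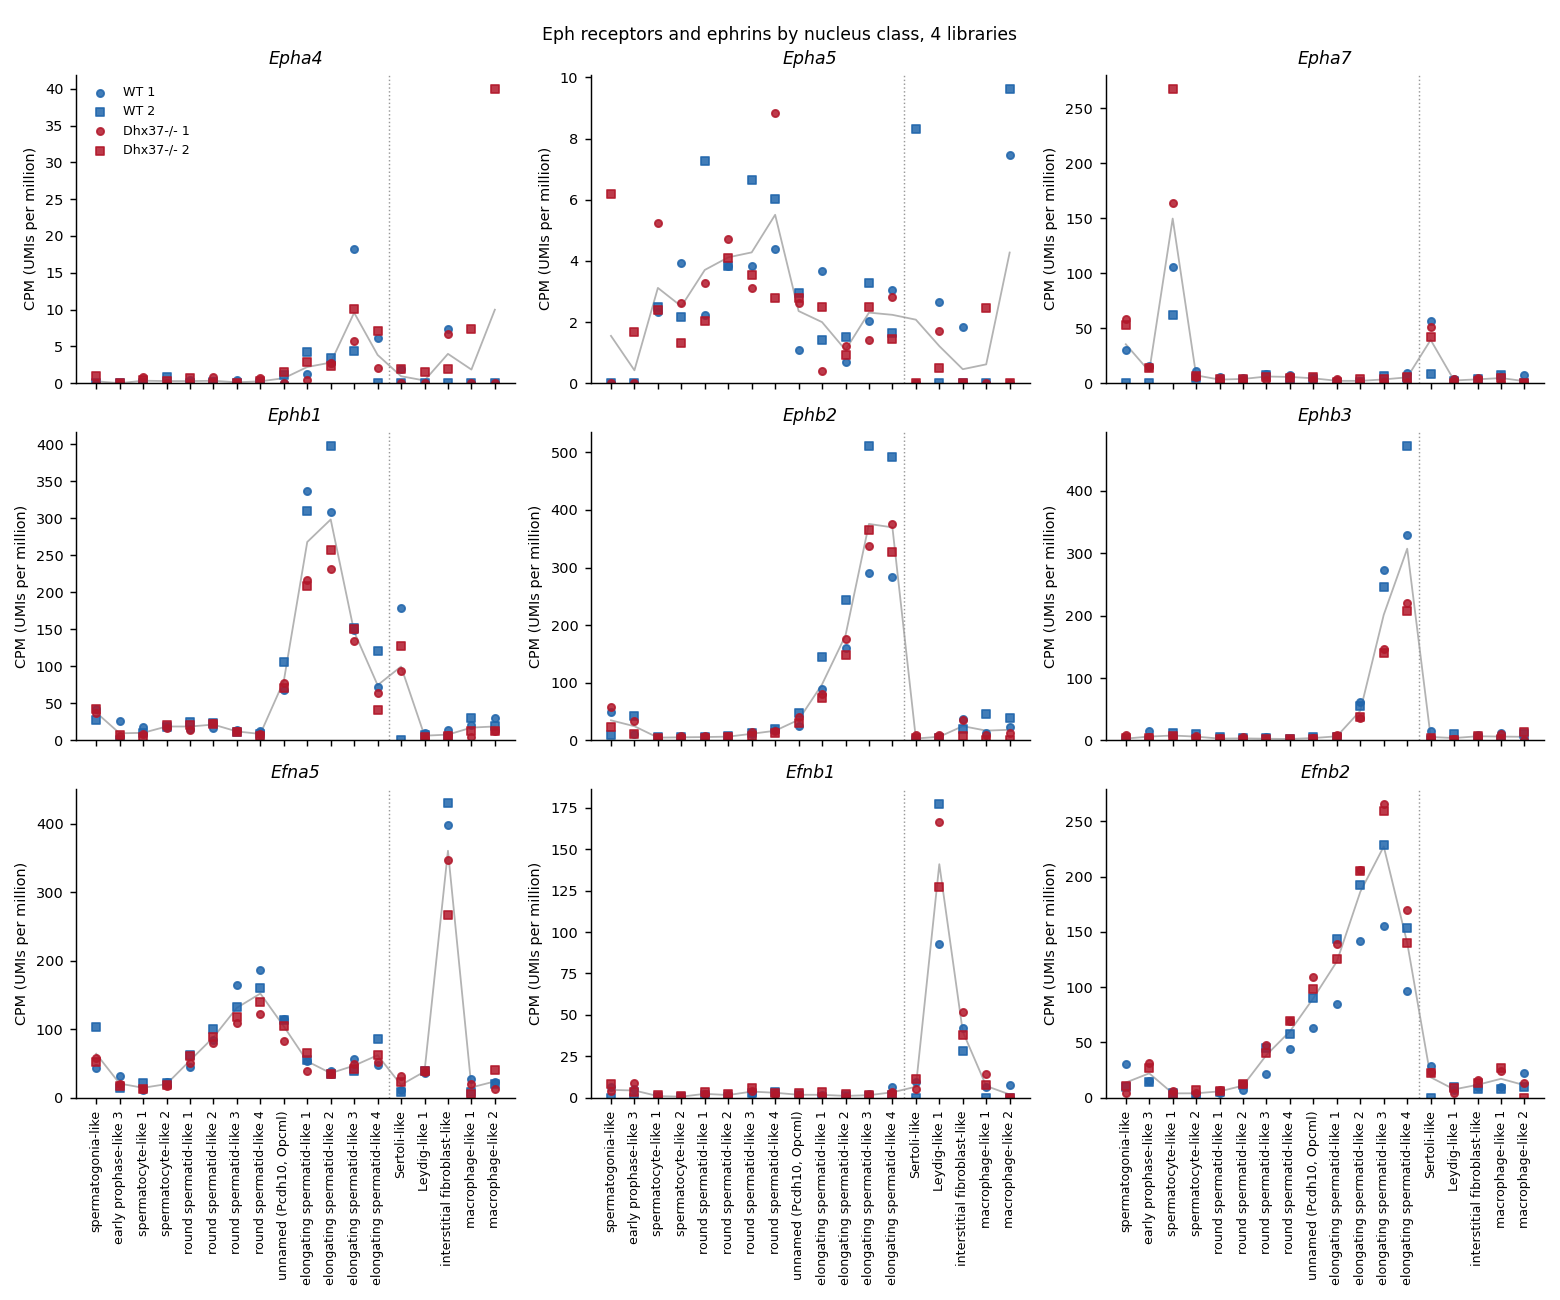
Each panel plots 1 gene, with CPM from 0 on a linear axis of its own against the 18 tested nucleus classes, germline to the left of the dotted line and somatic to the right. Points are the 4 libraries (blue WT, red Dhx37-/-) and the grey line joins their means only to guide the eye. Epha7 peaks in spermatocyte-like 1, Ephb1 in elongating spermatid-like 1 and 2, Ephb2 and Ephb3 in elongating spermatid-like 3 and 4, Efna5 and Efnb1 in interstitial classes.

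Likeness of pattern was described over 72 sums, 18 classes in 4 libraries, as Pearson's r of log2(CPM + 1) against 17198 genes. The sums share libraries, depth and free RNA, and no p-value is attached. Ephb3 was most like 4930517M08Rik (r = 0.893), Zfp385c (0.842) and the chemokine gene Ccl22 (0.835), and within its family most like Ephb2 (0.655). Ephb1 was most like Gm44846 (0.793), Gm44753 (0.780) and Tmem132d (0.779), and within the family most like Efnb2 (0.676). Epha7 was most like Gm16158 (0.737), the transporter gene Slc22a4 (0.735) and Elovl2 (0.703), an elongase of long polyunsaturated fatty acids, and its closest family gene was Ephb4 at only 0.320.

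Between genotypes, none of the members passed the threshold in any class, and the estimates differed between members. Ephb1, Ephb2, Ephb3 and the ligand Efna5 had mostly negative ones and the ligand Efnb2 mostly positive ones. The test was edgeR's quasi-likelihood test on counts summed per library and class, 2 against 2, with Benjamini-Hochberg adjustment over all genes of a class. Of 76 member-by-class tests, 0 were called at an adjusted p under 0.05, where 0.103% of 212055 gene-by-class tests were called. Of those 218 calls, 201 lay in early prophase-like 3, a class in which no member passed the filter on low counts. An unadjusted p under 0.05 was reached in 11 of the 76 (14.5%), against 8.56% of all tests, and DESeq2 also called 0. Both Dhx37-/- libraries lay below both WT libraries in 19 tests (25%, against 16.7% of all tests) and above them in 11 (14.5%, against 23.3%). Estimates were lower in Dhx37-/- in 54 tests and higher in 22, with a median log2 fold change of -0.20. The median over all genes of a class lay between -0.05 and 0.01. Partners of Eph signalling, described below, leaned the same way, with a median of -0.11 over 538 tests. At an unadjusted p under 0.05 by edgeR, 9 member tests were lower and 2 higher, against 49 and 9 of the partner tests. The tests share the same 4 libraries and their free RNA, so they are not separate readings.

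Ephb3 had the lowest adjusted p-values of the group. In elongating spermatid-like 4 its level was 330 and 471 CPM in WT against 221 and 207 in Dhx37-/-, a log2 fold change of -0.88 ± 0.22 (SE) with an edgeR adjusted p of 0.113. In elongating spermatid-like 3 the libraries stood at 273 and 246 against 146 and 140.3, with -0.86 ± 0.20 and an edgeR adjusted p of 0.235. In elongating spermatid-like 2 they stood at 61.3 and 55.1 against 36.4 and 37.2, with -0.68 ± 0.23 and an edgeR adjusted p of 0.580. In each of these 3 classes both WT libraries lay above both Dhx37-/- libraries. Of all genes tested, 17.3% did so in elongating spermatid-like 2, 19.3% in 3 and 21.8% in 4. The classes share the same 4 libraries, so they are not separate readings. In elongating spermatid-like 1, where Ephb3 was low, the groups overlapped and the estimate was 0.05 ± 0.46. Ephb3 in elongating spermatid-like 3 passed the threshold when WT 1 (edgeR adjusted p = 0.00106) or WT 2 (0.000297) was left out, and in elongating spermatid-like 4 (0.0321) and 2 (0.0284) when WT 2 was left out, the estimate in elongating spermatid-like 4 then being -0.58. Leaving out 1 WT library leaves the other to be judged by the spread of the Dhx37-/- pair, and over all genes those fits called 15405 and 27447 tests in place of 218.

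Ephb1 gave 12 lower estimates of 13 tests. The largest sums were in elongating spermatid-like 1, with a log2 fold change of -0.65 ± 0.19 and an edgeR adjusted p of 0.629, and in elongating spermatid-like 2, with -0.55 ± 0.20 and 0.580. Elongating spermatid-like 4 gave -0.79 ± 0.32 with 0.289, and the genotypes did not overlap in any of the 3. The estimate in elongating spermatid-like 4 became -0.33 without WT 2, -1.21 without Dhx37-/- 1 and -0.52 without Dhx37-/- 2, and that in elongating spermatid-like 2 became -0.34 without WT 2. In elongating spermatid-like 3, between them, the genotypes overlapped and the estimate was -0.10 ± 0.21. The estimate in elongating spermatid-like 1 ran from -0.69 to -0.60 over the alternative fits. Ephb1 was also lower in spermatocyte-like 1, at 17.5 and 10.6 against 8.27 and 4.32 CPM, from 30, 17, 19 and 9 UMIs (edgeR adjusted p = 0.584). The log2 fold change of -1.18 became -0.68 without WT 1 and -0.78 without Dhx37-/- 2. In free RNA Ephb1 stood at 34.65 and 34.11 CPM in WT against 18.61 and 17.84 in Dhx37-/-, above its level in this class in every library. Free RNA was estimated at 25.56%, 17.74%, 16.32% and 20.16% of the UMIs of this class. Its part in the lower Ephb1 reading was not tested. In Sertoli-like nuclei, where Dhx37 was the target, the WT pair spanned both Dhx37-/- libraries and the estimate had a standard error of 0.57. At 93.2 and 127 CPM the Dhx37-/- libraries lay below WT 1 (178) and above WT 2 (0), so no direction can be read there.

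Ephb2 gave 11 lower estimates of 12, but in all 4 elongating spermatid-like classes its WT libraries differed more from each other than the genotype means did. Elongating spermatid-like 1 read 88.5 and 145 in WT against 80.8 and 74.4 in Dhx37-/-, a log2 fold change of -0.63 ± 0.27 with an edgeR adjusted p of 0.629. The estimate became -0.97 without WT 1 and -0.22 without WT 2. In elongating spermatid-like 3 and 4, where Ephb2 was highest, both Dhx37-/- libraries lay between the WT libraries, and the estimates were -0.22 ± 0.25 and -0.11 ± 0.24.

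Among the ligands, Efnb2 had 10 of 12 estimates higher in Dhx37-/- and both Dhx37-/- libraries above both WT libraries in 7 of the 12, against 23.3% of all tests, and none of the 12 was called. In elongating spermatid-like 3 it stood at 156 and 228 in WT against 266 and 259, a log2 fold change of 0.42 ± 0.22 with an edgeR adjusted p of 0.524, the lowest of its 12. There WT 2 lay nearer to either Dhx37-/- library than to WT 1, so the size of that estimate depends on WT 1. The estimate of 1.42 ± 0.52 in spermatocyte-like 2 rests on 8, 6, 17 and 21 UMIs, with an edgeR adjusted p of 0.761. Efna5 gave 13 lower estimates of 15. Both Dhx37-/- libraries lay below both WT libraries in 6 of its 15 tests, against 16.7% of all tests, and above them in 1. Interstitial fibroblast-like nuclei gave -0.47 ± 0.20 (-0.29 without Dhx37-/- 2) with an edgeR adjusted p of 0.586. The 2 higher estimates included Sertoli-like nuclei, with 1.22 ± 0.57 from 6, 1, 35 and 49 UMIs. Efnb1 was tested in 3 classes, with estimates of 0.11 to 0.44, and Epha5 in 3, with estimates of -0.97 to 0.13. Epha4 passed the filter on low counts in no class.

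**Figure D3:**
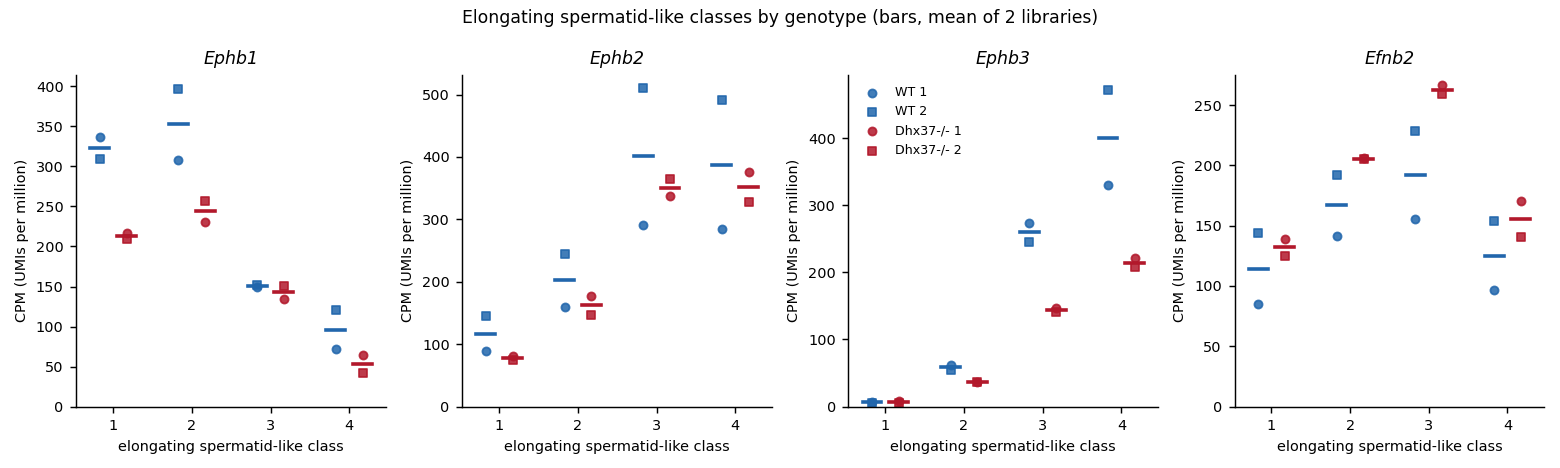
The 4 panels plot Ephb1, Ephb2, Ephb3 and Efnb2 as CPM from 0 in elongating spermatid-like classes 1 to 4. Circles and squares are replicates 1 and 2 of WT (blue) and Dhx37-/- (red), and short bars are the mean of the 2 libraries. Ephb3 in classes 2 to 4 has both blue points above both red points, Ephb2 in classes 3 and 4 has the red points between the blue ones, and Efnb2 has red means above blue means throughout.

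Other measures moved with genotype across the libraries, in these nuclei and elsewhere. Of the 18 tested classes, the Dhx37-/- pair exceeded the WT pair without overlap in 17 for the summed elongating spermatid markers, in 17 for the Sertoli markers, in 15 for the Leydig markers, in 12 for the spermatogonia markers and in 8 for the round spermatid markers. The Dhx37-/- pair was below the WT pair without overlap in 7 classes for the pericyte markers, in 6 for the macrophage markers and in 5 for the T cell markers. The summed level of the 12 elongating spermatid markers was 27530 and 28420 CPM in WT against 37960 and 35460 in Dhx37-/- for elongating spermatid-like 3, and 36880 and 43270 against 57030 and 48930 for elongating spermatid-like 4. The summed level of 14 Sertoli markers in elongating spermatid-like 4 was 399 and 334 against 578 and 588, and of 11 Leydig markers 191 and 202 against 335 and 341. Dhx37-/- nuclei were also deeper, with medians of 1503 and 1583 UMIs against 1241 and 1305 in that class. The part of these differences in the lower readings of Ephb1 and Ephb3 was not tested. In summed counts, fewer nuclei with the transcript and fewer transcripts per nucleus cannot be told apart.

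Of the 22 higher estimates, Epha7 in spermatocyte-like 1 had the lowest unadjusted p. From 180 and 99 UMIs in WT and 377 and 556 in Dhx37-/-, at 105 and 61.9 against 164 and 267 CPM, its log2 fold change was 1.33 ± 0.34 with an edgeR adjusted p of 0.573. The genotypes did not overlap, Dhx37-/- 2 being the highest library and WT 2 the lowest. Of all genes tested in the class, 22.6% lay higher in both Dhx37-/- libraries than in both WT libraries. Over the 12 alternative fits the estimate ran from 0.96 to 1.85. Fits without WT 1 or WT 2 judge the other WT library by the spread of the Dhx37-/- pair, so they are no separate support. The class held 470, 435, 470 and 408 nuclei. Summed early prophase markers in it overlapped between genotypes, at 1245, 1179, 1242 and 1148 CPM. Its own pachytene and later spermatocyte markers summed to 1649, 1747, 1856 and 1790. Spermatogonia markers summed to 222.8, 171.2, 248.2 and 243.5, and round spermatid markers to 1526, 1363, 1532 and 1591. The Sertoli marker sum was 129, 125, 195 and 188, the Leydig marker sum 146, 148, 213 and 221 and the elongating spermatid marker sum 5040, 5262, 8346 and 6595. Apart from the early prophase sum, each of these was higher in both Dhx37-/- libraries than in both WT libraries. Their part in the Epha7 reading was not tested.

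In the same direction, Epha7 in spermatogonia-like nuclei gave 1.52 ± 0.77 from 5, 0, 14 and 51 UMIs, with an edgeR adjusted p of 0.855. The levels were 30.5, 0, 58.4 and 52.6 CPM, and the WT 2 count of 0 allows up to 28.1, so the size of that estimate depends on WT 2. The remaining Epha7 estimates lay on both sides of 0, from -0.79 ± 0.50 in round spermatid-like 3 to 0.13 ± 0.71 in round spermatid-like 1, and Sertoli-like nuclei gave -0.05 ± 0.45. A joint fit over all 18 classes with a library term asked whether the genotype difference of a gene varied between classes. Beyond that term it took each class sum of a library as a separate observation. Its p-values therefore rest on spread between class sums, which share libraries and free RNA. Of 25887 genes 482 (1.86%) were called, among them 1 of the 9 members, Epha7, with an edgeR adjusted p of 0.0298. That call did not hold under RLE scaling (0.216), without doublet calls (0.0960), without WT 2 (0.0863), without Dhx37-/- 1 (0.205) or without Dhx37-/- 2 (0.938), and it held without the filter on low counts (0.0432) and without WT 1 (8.02e-05).

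**Figure D4:**
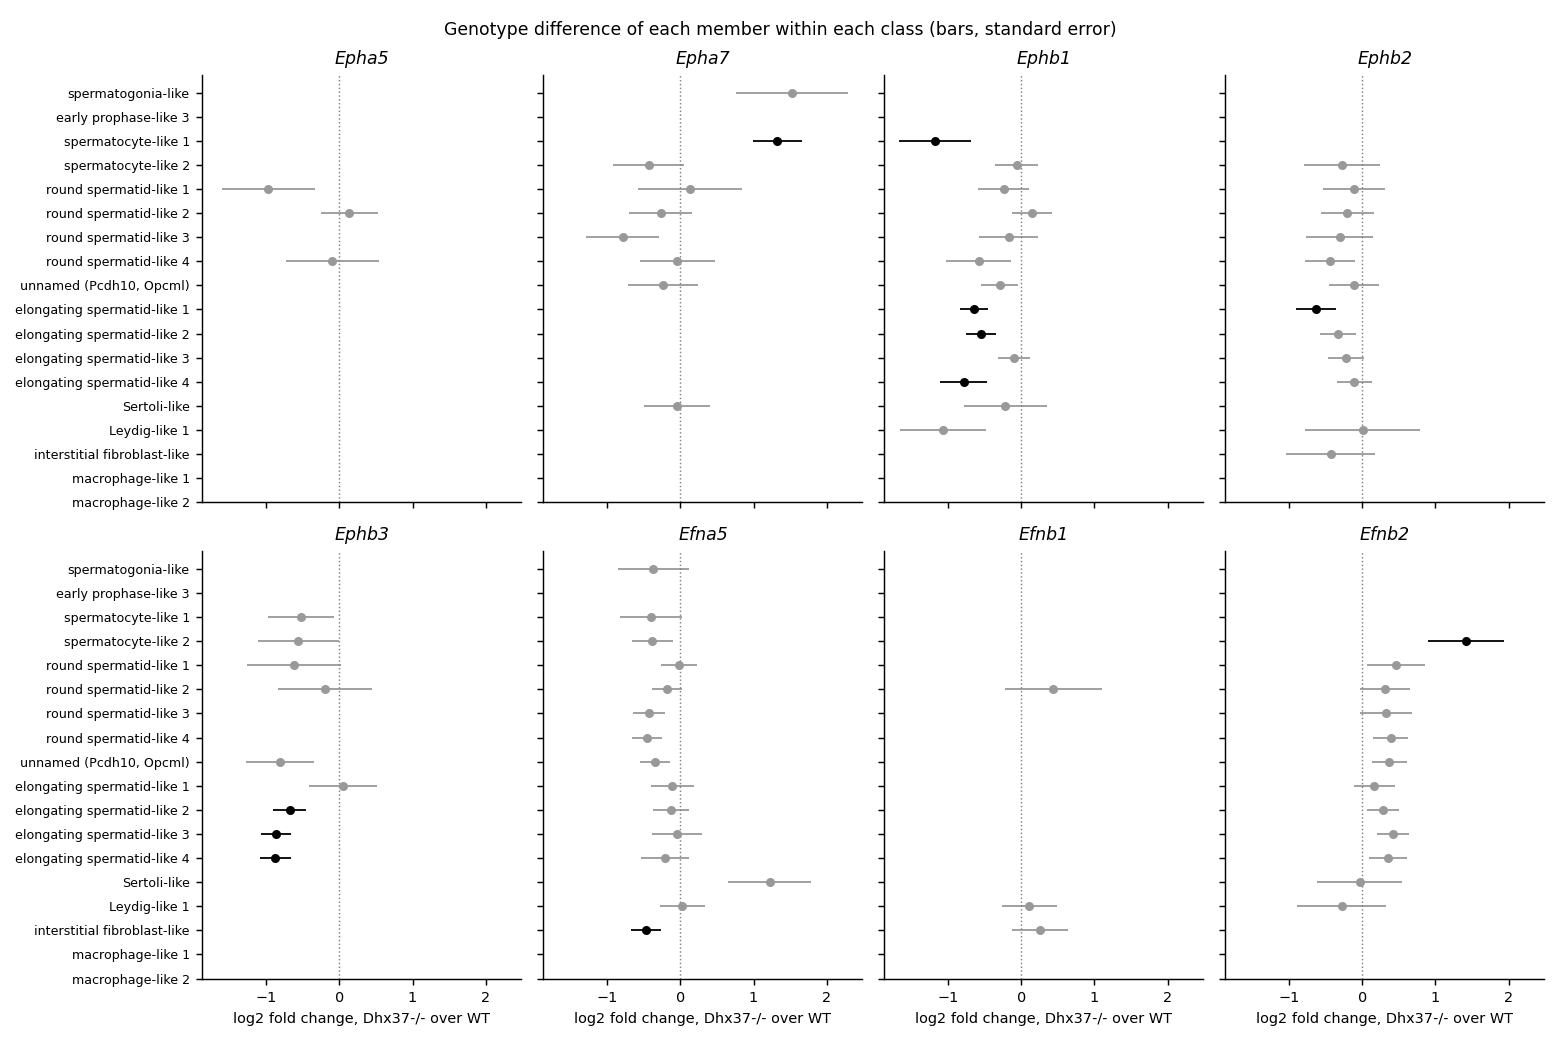
Each panel plots, for 1 of the 8 members that could be tested, the log2 fold change of Dhx37-/- over WT in each class, with bars of 1 standard error and a dotted line at 0. Black points had an unadjusted p under 0.05 (11 of 76) and none had an adjusted p under 0.05. Ephb1, Ephb2, Ephb3 and Efna5 lie mostly left of 0 and Efnb2 mostly right of it.

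Of the 13 other Eph and ephrin genes, 4 reached 20 CPM in every library of some tested class. Epha6 was the most widespread, with 143, 383, 245 and 244 CPM in spermatocyte-like 1 and 102, 286, 183 and 148 in round spermatid-like 2, WT 1 lowest and WT 2 highest in both. Epha3 had its highest mean in round spermatid-like 3 at 102 ± 23.8. Epha10 stood at 54.1 ± 9.78 in elongating spermatid-like 2, and Ephb4 at 29.6 ± 9.51 in spermatocyte-like 2 and 24.2 ± 5.33 in interstitial fibroblast-like nuclei. None of 49 tests of these other family genes was called between genotypes, 6 had an unadjusted p under 0.05 by edgeR, and DESeq2 also called 0. The joint fit called Epha3 with an edgeR adjusted p of 0.00709. That call held with RLE scaling (0.0236), without the filter on low counts (0.00017) and without doublet calls (0.00936). It did not hold when Dhx37-/- 2 was left out, and it held when any other library was left out. Of the 39 partners of Eph signalling (such as adaptors, kinases, exchange factors and proteases), 38 could be tested, in 538 class tests of which 1 was called (0.186%). It was Grip1, a PDZ-domain scaffold that binds the tail of B-class ephrins, lower in early prophase-like 3 with a log2 fold change of -1.45 ± 0.34 and an edgeR adjusted p of 0.0375, in a class of 27 to 151 nuclei per library where 2.75% of genes were called. The early prophase marker sum of that class was 2312 and 2374 CPM in WT against 4726 and 4308 in Dhx37-/-. Free RNA there was estimated at 28.65% and 35.42% against 14.36% and 17.87%. Their part in the Grip1 reading and in the other calls of the class was not tested.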

How the data were processed

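The deposited matrices hold unfiltered UMI counts, 1 row per gene and 1 column for each barcode seen. The authors made these counts with Cell Ranger, against mm39 by the study's methods, while the submitters' processing notes name GRCm38 and mm10, and no coordinate was taken from the counts. Which annotation was used, and whether intron reads were counted by a set option, is not given in the sources used here.

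Calling of nuclei (Python 3.11.15) used a knee rule for 8000 expected nuclei and a test against free RNA (adjusted p under 0.01, at least 500 UMIs), and nuclei with 500 to 5000 genes and at most 25% mitochondrial UMIs were kept. Clustering (scanpy 1.11.5, Leiden, 2000 variable genes without the Eph and ephrin genes, 30 components) gave 28 clusters. A cluster was named from markers at 20 CPM or more and 1.5-fold above the rest, with at least 3 such markers, and a nucleus of a named class had to hold at least 1 marker UMI. A cluster of 905 nuclei was left out because 95.14% of them were doublet calls by Scrublet, over a limit of 50%. Doublet calls in other clusters were removed in an alternative only. A cluster led by mitochondrial genes, nearest to Sertoli by its markers, was also left out. It held 311, 168, 588 and 369 nuclei in WT 1, WT 2, Dhx37-/- 1 and Dhx37-/- 2, which the Sertoli-like counts do not include. Classes with at least 20 nuclei in each library (10 for Sertoli-like nuclei) were summed and fitted in edgeR 4.0.16 (TMM, filterByExpr, R 4.3.3) on all genes, checked on simulated data first. A level in CPM is a gene's UMIs over all UMIs of the class. A count of 0 was taken to allow up to 3 counts. Alternatives were DESeq2 1.42.0, RLE scaling, no filter, a replicate block, doublets removed, no test against free RNA, free RNA subtracted, and each library left out. A crossed block was added after the data were seen.

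The members, marker lists, family and partner lists were chosen with earlier results of these data known. The study's own Wilcoxon test across nuclei was not used, since nuclei of 1 library are not replicates. All 9 members are named, other family genes where a class reached 20 CPM in every library, partners where a genotype test was called, and for Epha7, Ephb1 and Ephb3 the 3 most similar genes with at least 5 CPM on average.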

Additional observations from a re-analysis of the deposited data

Results flagged for a closer look

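The genotype difference of Epha7 was called as varying between the 18 classes, with an edgeR adjusted p of 0.0298 for the joint test of all genotype-by-class terms, a call that held in 2 of 7 alternatives. It held without the filter on low counts (0.0432) and without WT 1 (8.02e-05), and not with RLE scaling (0.216), without doublet calls (0.0960), without WT 2 (0.0863), without Dhx37-/- 1 (0.205) or without Dhx37-/- 2 (0.938). Its estimates ran from -0.79 in round spermatid-like 3 to 1.33 in spermatocyte-like 1 and 1.52 in spermatogonia-like nuclei, the last from 5, 0, 14 and 51 UMIs. The size of that last estimate depends on the WT 2 count of 0.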

How the results depend on the processing

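The 11 member-by-class estimates with an unadjusted p under 0.05 kept their sign in every alternative that could be fitted. They were picked by that p and their genotypes did not overlap, so leaving out 1 library could hardly turn a sign. The kept signs are therefore no separate support. Over all genes, 218 gene-by-class tests were called in the reported fit, 1175 without the filter on low counts, 406 without doublet calls and 109 to 27447 when 1 library was left out. Among member-by-class tests the count of 0 stayed 0 in all of these except leaving out WT 1 (10) or WT 2 (14). The genotype-by-class count of 482 became 60 with RLE scaling, 232 without the filter, 104 without doublet calls and 18 to 3630 with 1 library left out. The adjusted p of Epha7 in that test became 0.0432 without the filter, 0.216 with RLE scaling, 0.0960 without doublet calls and 8.02e-05 to 0.938 with 1 library left out. Subtracting free RNA moved the Ephb3 level in elongating spermatid-like 4 from 307 to 470.8 CPM. The causes were not tested.

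With the replicate number as a block, 482 tests were called, 0 of them among member-by-class tests. Same-numbered libraries did not deviate together (r of -0.29 to 0.02 over 18 classes), so the numbers do not pair the libraries. Pairing the numbers crosswise, added after the data were seen, called 1273 tests, 3 of them member-by-class tests. With 2 libraries per genotype, adjusted p-values within a class rest on few degrees of freedom, and Epha4 and Epha5 are limited by their 200 and 397 UMIs.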
